A study of Mus musculus with 15 samples.

Results

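Acyl-CoA thioesterases cut fatty acyl-CoA into free fatty acid and coenzyme A. The 9 genes described here are Acot1, Acot2, Acot3, Acot4, Acot7, Acot8, Acot9, Acot11 and Acot13. They were taken by symbol from a table of 24030 gene symbols, and all 9 have a row in it. The tissue was mouse brown adipose tissue (BAT), a fat depot whose cells oxidise fatty acids for heat, and its RNA was measured by bulk sequencing in 15 libraries. KO libraries came from mice with a BAT-specific knockout of DJ-1 (BDJ1KO), a protein encoded by Park7. WT libraries, as labelled, came from flox mice. Housing lasted 8 weeks for each genotype, either at room temperature or at 29 °C, a temperature at which a mouse needs little extra heat. There were 4 WT and 4 KO libraries at room temperature, and 4 WT and 3 KO libraries at 29 °C. The Cre driver, the age and sex of the mice and the number of mice behind each library are not given in the sources used here, so p-values measure the spread between libraries, which may be partly technical.

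The family has 2 unrelated protein folds. Acot1 to Acot6 in the mouse are type I enzymes with an alpha/beta hydrolase fold, and they differ mainly in where they work: Acot1 in the cytosol, Acot2 in the mitochondrial matrix and Acot3 and Acot4 in peroxisomes. Acot7, Acot8, Acot9, Acot11 and Acot13 are type II enzymes. Acot7 is a cytosolic enzyme best known from brain, Acot8 is peroxisomal and Acot9 mitochondrial. Acot11, also called Them1 or BFIT (brown fat inducible thioesterase), was named for its induction in brown fat by cold and carries a lipid-binding START domain, and Acot13, also called Them2, is a small enzyme found at mitochondria. In brown fat these enzymes act on the same acyl-CoA pool that feeds beta-oxidation, and the type I genes are known targets of the nuclear receptor PPARalpha.

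The type I genes lie side by side. In GRCm38 (mm10), Acot2, Acot1, Acot4, Acot3, Acot5 and Acot6 follow each other on the plus strand of chr12:83987861-84111349, a stretch of 123 kb. Acot2 spans chr12:83987861-83993873 and Acot1 spans chr12:84009490-84018371, each with 3 exons. Acot4 lies at chr12:84038379-84048601 and Acot3 at chr12:84052144-84060402. The type II genes are dispersed. Acot11 lies at chr4:106744555-106804998 on the minus strand, Acot7 at chr4:152178134-152271855, Acot8 at chr2:164792765-164804882, Acot9 at chrX:155262443-155297654 and Acot13 at chr13:24817948-24831540.

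Acot1 and Acot2 are close copies, which bears on every value given for the pair. Along the 1257 coding bases of Acot1, 1192 were identical to Acot2 (94.8%, aligned without gaps). Of the 2123 possible windows of 150 bases, the read length, in the Acot1 transcript, 209 (9.84%) also occurred in Acot2, all inside 3 coding runs of 158, 225 and 273 identical bases. The same stretch of exon 2 is shown for both genes because it holds the end of a shared run and the start of the next, with the bases that tell the copies apart in capitals (plus strand, Acot1 at chr12:84014436-84014555 and Acot2 at chr12:83990551-83990670).
Acot1: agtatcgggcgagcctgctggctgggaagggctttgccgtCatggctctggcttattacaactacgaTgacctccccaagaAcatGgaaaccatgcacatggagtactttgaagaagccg
Acot2: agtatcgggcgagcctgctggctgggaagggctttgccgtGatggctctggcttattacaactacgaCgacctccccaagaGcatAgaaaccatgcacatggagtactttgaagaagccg
The 120 bases differed at 4 positions, and a read without errors that covers any of them can be given to its own gene. Of the Acot1 windows, 2.54% occurred in Acot3 and 0.471% in Acot5, and none in Acot4 or the type II genes. Acot4, Acot7, Acot8, Acot9, Acot11 and Acot13 shared no window with another gene of the family.

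The sequences upstream of the 4 genes that differed most between groups are shown next, as the 250 bases before each RefSeq start (GRCm38.p6), 5′ to 3′ on the gene's own strand. RefSeq windows were found for 8 of the 9 genes, and not for Acot13. Capitals mark matches on either strand to the PPAR response element (AGGTCA repeated after 1 free base), its single site AGGTCA, the cyclic AMP response element TGACGTCA and its core TGACG (which the full element contains), the TATA box TATAAA, the CCAAT box and the E-box CACGTG. Motifs on the opposite strand read as their reverse complement. The windows of Acot11 are chr4:106805008-106805257 for the upstream start and chr4:106799832-106800081 for a downstream start, both on the minus strand. The others are on the plus strand, Acot2 at chr12:83987611-83987860, Acot1 at chr12:84009252-84009501 and Acot4 at chr12:84038129-84038378.
Acot11 upstream start: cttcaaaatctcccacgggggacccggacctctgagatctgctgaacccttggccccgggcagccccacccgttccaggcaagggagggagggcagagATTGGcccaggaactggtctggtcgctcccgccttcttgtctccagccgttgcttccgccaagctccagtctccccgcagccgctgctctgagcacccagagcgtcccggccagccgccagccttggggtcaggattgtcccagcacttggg
Acot11 downstream start: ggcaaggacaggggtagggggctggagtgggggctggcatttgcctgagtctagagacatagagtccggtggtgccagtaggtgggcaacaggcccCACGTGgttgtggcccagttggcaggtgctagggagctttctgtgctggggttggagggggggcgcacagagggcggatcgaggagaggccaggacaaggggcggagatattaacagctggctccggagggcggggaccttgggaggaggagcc
Acot2: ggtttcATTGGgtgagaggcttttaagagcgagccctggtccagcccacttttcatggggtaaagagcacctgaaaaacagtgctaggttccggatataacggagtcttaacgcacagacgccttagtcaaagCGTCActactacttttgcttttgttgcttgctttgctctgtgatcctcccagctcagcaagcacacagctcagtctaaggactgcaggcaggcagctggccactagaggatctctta
Acot1: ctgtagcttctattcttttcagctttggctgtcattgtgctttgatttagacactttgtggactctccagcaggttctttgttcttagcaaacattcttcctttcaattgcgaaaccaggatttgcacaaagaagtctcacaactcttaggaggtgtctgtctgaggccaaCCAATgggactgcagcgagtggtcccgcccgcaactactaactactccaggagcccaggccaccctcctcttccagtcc
Acot4: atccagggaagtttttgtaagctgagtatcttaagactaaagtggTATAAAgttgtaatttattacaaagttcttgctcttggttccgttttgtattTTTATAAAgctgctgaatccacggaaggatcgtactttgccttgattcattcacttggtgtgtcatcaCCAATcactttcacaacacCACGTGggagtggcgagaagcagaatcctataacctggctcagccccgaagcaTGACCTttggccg
The full PPAR element occurred in 0.0338% of 32536 such windows of all genes and in no window of the 8 genes. The single site AGGTCA occurred in 14.0% of all windows and, among these genes, in that of Acot4, on the opposite strand at -13 to -8 from the start. TGACG occurred in 17.9% of all windows and in that of Acot2, on the opposite strand at -117 to -113, and the full TGACGTCA, present in 1.56% of all windows, in none. Acot4 also had overlapping TATAAA matches (12.3% of all windows) and CACGTG at -66 to -61 (6.04%), and the downstream window of Acot11 had CACGTG at -154 to -149. CCAAT, found in 33.8% of all windows, was present upstream of Acot1, Acot2, Acot3, Acot4, Acot8 and Acot9 and in the upstream window of Acot11. These matches are a description of the letters in these windows.

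Libraries held 23977400 to 26789200 estimated counts, except KO replicate 1 at 29 °C with 38801000. Park7, the targeted gene, was at 108 to 112 CPM (counts scaled to library size by TMM) in WT libraries at room temperature, 24.98 to 34.1 in KO, 104 to 128 in WT at 29 °C and 25.4 to 35.2 in KO, so every library matched its genotype label. The list of brown adipocyte markers held Ucp1 and Cidea, and also Adipoq and Plin1, which are genes of adipocytes in general. All 12 were detected in every group. Their summed level was 12500 to 14600 CPM in WT and 8430 to 14800 CPM in KO at room temperature, 2760 to 3900 CPM in WT at 29 °C and 9580 to 12600 CPM in KO at 29 °C. Skeletal muscle markers (14 genes, of which 12 were detected in each room temperature group and all 14 at 29 °C, with Myh4 and Pvalb at 0 in room temperature WT and Ckm and Pvalb at 0 in room temperature KO) summed to 34.7 to 69.2 CPM in 12 libraries. They reached 1720 CPM in WT replicate 2, 669 CPM in KO replicate 2 and 2050 CPM in KO replicate 3, all at 29 °C. Without these 3 libraries, 3 WT and 1 KO library remain at 29 °C, and the spread of the lone KO library is then assumed to be that of the other groups. That lone library, KO replicate 1, stood apart on the third principal component of log2 CPM (5.74% of the variance). It was at -56.6 there, and the other libraries lay between -11.8 and 42.9. Values without the 3 libraries therefore rest, for warm KO, on a single library that stood apart. On the fourth principal component of log2 CPM (4.73% of the variance), KO replicates 2 and 4 at room temperature stood at -41.3 and -34.1 and the other libraries between -16.3 and 24.7. Among the member calls, leaving out both changed that of Acot13 in warm KO alone. In bulk tissue, fewer cells of a type and less RNA per cell cannot be told apart.

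At room temperature, Acot11 and Acot13 were the most abundant members. Per kilobase of exon, Acot11 stood at 148 ± 29.9 CPM per kb (SD, n = 4) in WT at room temperature and Acot13 at 124 ± 3.58, and their ranges overlapped. Acot9 (29.1 ± 2.09) and Acot2 (27.0 ± 3.59) came next and also overlapped. Acot8 (11.2 ± 0.575), Acot7 (10.1 ± 0.362), Acot1 (5.39 ± 2.97), Acot4 (1.04 ± 0.362) and Acot3 (0.137 ± 0.0902) followed, each without overlap with the next. The order of genes with close levels, such as Acot8 and Acot7, depends on the length used. The protein-coding exons of Acot7 total 1860 bases, while its longest transcript has 1505. In KO at room temperature the order was the same apart from Acot2 and Acot9, which overlapped, as did Acot8 and Acot7, and here Acot11 (176 ± 36.4) lay above Acot13 (114 ± 8.82) without overlap.

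At 29 °C the order was different. In WT, Acot13 stood first at 160 ± 25.5 CPM per kb (n = 4) and Acot9 second at 26.1 ± 2.72, and Acot11 had dropped to 7.39 ± 1.63, within the range of Acot2 (8.17 ± 1.45) above it and of Acot8 (6.68 ± 0.635) below it. In KO, Acot13 stood at 140.5 ± 11.8 (n = 3), and Acot2 (30.2 ± 2.53), Acot9 (27.0 ± 4.93) and Acot11 (24.5 ± 8.30) overlapped in turn. Of the summed level of the 9 genes per kb, Acot11 held 41.3% ± 5.69 in WT and 47.7% ± 6.13 in KO at room temperature, 3.35% ± 0.562 in WT and 10.2% ± 3.14 in KO at 29 °C. The share of Acot13 moved the other way, from 35.0% ± 2.87 and 31.3% ± 3.11 to 72.6% ± 2.42 and 58.6% ± 1.13. Shares of a sum are tied to each other, so a fall of Acot11 by itself raises the share of Acot13. The level of Acot13 was 1.29-fold higher at 29 °C in WT and 1.23-fold higher in KO. Without Acot11 the sum of the other 8 was nearly level across the groups, at 208 ± 11.0, 191 ± 19.2, 213 ± 26.5 and 215 ± 15.1 CPM per kb in room temperature WT, room temperature KO, warm WT and warm KO, and their ranges overlapped. Most of this sum was Acot13, a short transcript, so a level sum does not mean level genes. In WT, Acot13 stood at 124 CPM per kb at room temperature and 160 at 29 °C. Acot2 went from 27.0 to 8.17 and Acot1 from 5.39 to 0.161.

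**Figure D1:**
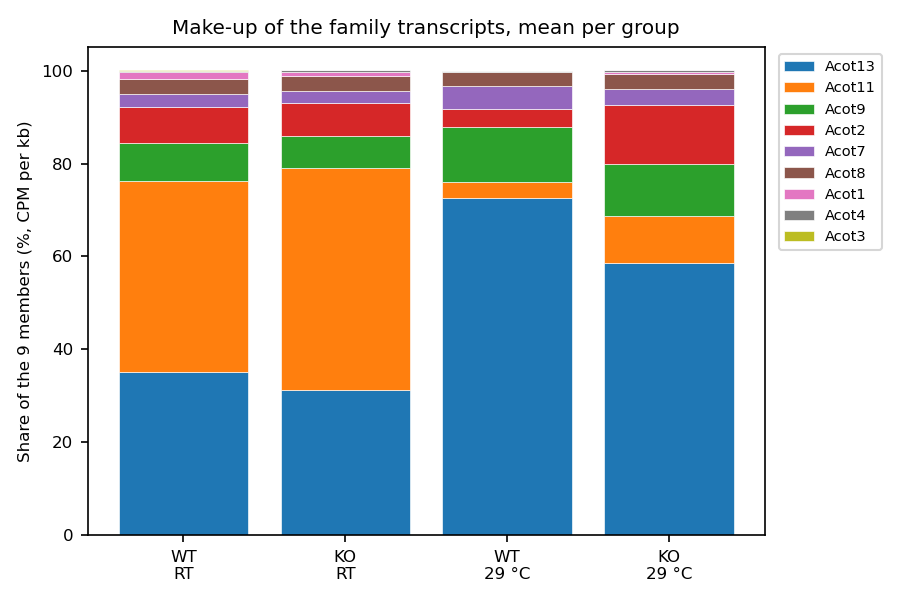
Stacked bars give each gene's mean share, in percent, of the summed CPM per kb of the 9 thioesterase genes in the 4 groups. Acot11 (orange) takes 41.3% in WT at room temperature and 3.35% in WT at 29 °C, while Acot13 (blue) takes 35.0% and 72.6%.

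Calls were made with edgeR's quasi-likelihood test in a fit of all 15 libraries, at a Benjamini-Hochberg adjusted p under 0.05 over 15083 genes. Of the 9 members, 8 passed the filter on low counts and were tested. Acot3 did not, with 0 to 21 counts per library. Its room temperature level was 0.469 ± 0.310 CPM for WT and 0.220 ± 0.115 CPM for KO, and 0.0656 ± 0.0694 and 0.103 ± 0.0325 CPM at 29 °C, so no difference between genotypes was detectable at this depth. With no filter on low counts, Acot3 was called lower in warm than in room temperature WT (-2.82 ± 0.66, edgeR adjusted p = 0.00106) and in no other comparison. Exons of Acot3 overlap Gm49366 on the same strand over 396 bases and 4732463B04Rik on the other strand over 312 bases. The part of these overlaps in its counts was not tested.

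**Figure D2:**
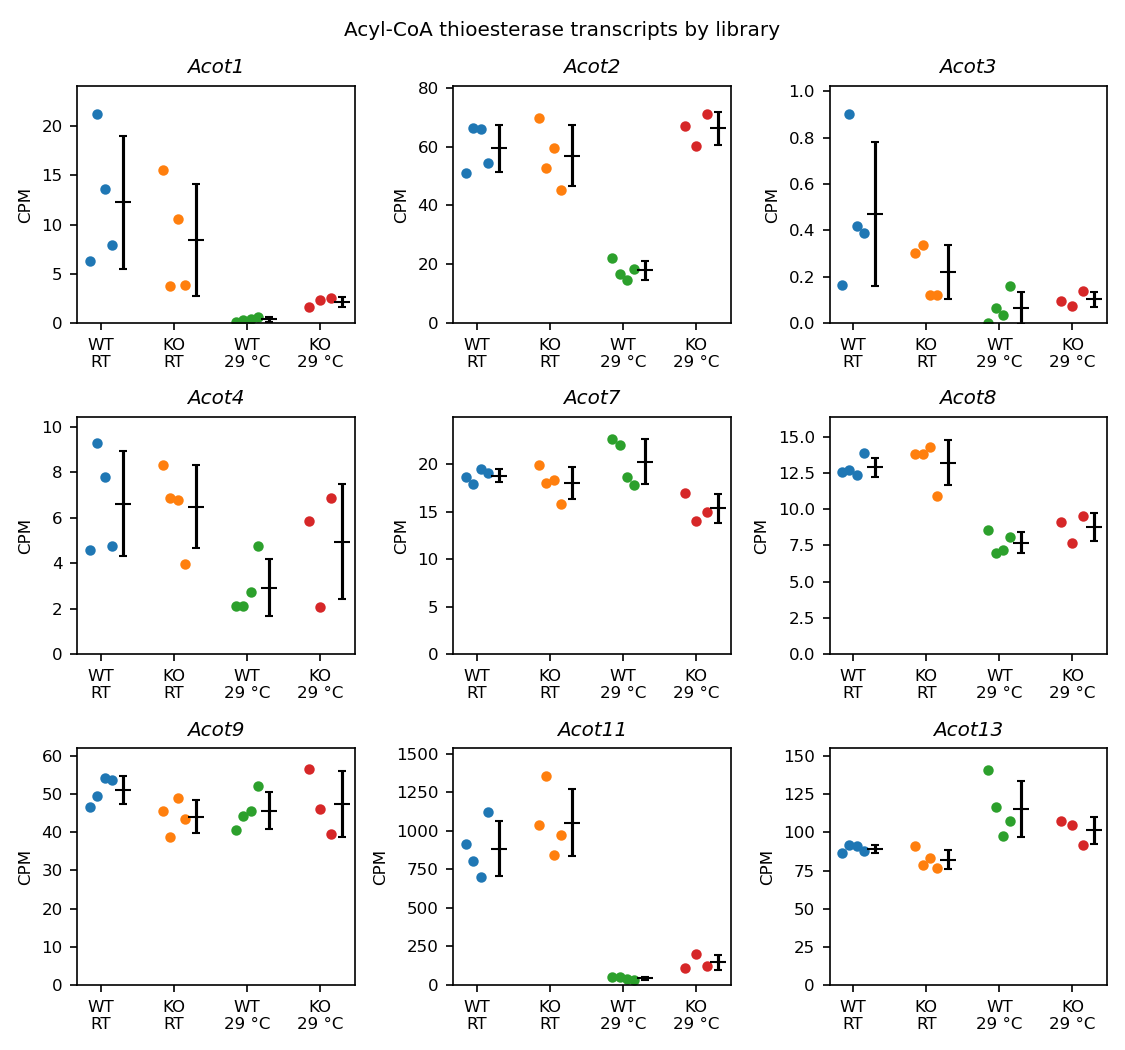
Each panel shows 1 gene, each point 1 library, in CPM on a linear axis from 0, and the bar beside the points gives mean ± SD. Acot11 and Acot2 separate the groups at 29 °C without overlap, where Acot2 spans 14.6 to 22.1 CPM for WT and 60.3 to 71.2 CPM for KO, while Acot9 overlaps in all 4 groups.

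In WT mice, 5 of the 8 tested members were lower and 1 was higher after warm housing, when less heat is needed, than at room temperature. Acot1, Acot2, Acot4, Acot8 and Acot11 fell and Acot13 rose, and Acot7 and Acot9 did not pass the test. Of all tested genes 68.8% passed in this comparison (32.8% lower and 35.9% higher), so a count of 6 of 8 is close to the background. The sizes differed by gene, from 33.7-fold for Acot1 and 20.0-fold for Acot11 to 1.29-fold for Acot13. The median log2 fold change of all tested genes was 0.06.

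Acot11, the brown fat inducible enzyme, was at 913, 803, 700.3 and 1118 CPM in the 4 WT libraries at room temperature and at 52.8, 51.25, 40.5 and 32.1 CPM in those at 29 °C. No warm library came within an order of magnitude of a room temperature library. The log2 fold change was -4.32 ± 0.25 (SE, edgeR adjusted p = 2.34e-09). In the same comparison 11 of the 12 brown adipocyte markers were called lower, with a median log2 fold change of -1.90. Markers of endothelium (12 of 12, median 1.74), macrophages (10 of 10, median 1.28) and red blood cells (5 of 5, median 1.96) were called higher, and the part of these cells in the members' levels was not tested. Exons of Fam151a, on the other strand, overlap those of Acot11 over 1263 bases, and Fam151a was at 0.0693 CPM or below in every library.

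Acot2, the mitochondrial enzyme, was at 51.0, 66.3, 66.0 and 54.4 CPM in WT at room temperature and at 22.1, 16.6, 14.6 and 18.5 CPM at 29 °C, with no overlap. Its log2 fold change was -1.73 ± 0.15 (edgeR adjusted p = 3.87e-08). Acot1, its cytosolic neighbour, was at 6.29, 21.2, 13.6 and 7.88 CPM at room temperature and at 0.0694, 0.332, 0.415 and 0.646 CPM at 29 °C. All 4 warm libraries were low, with 2.11 to 16.0 estimated counts each. The log2 fold change of Acot1 was -5.08 ± 0.66 (edgeR adjusted p = 1.72e-05), with a 95% interval of -6.51 to -3.64. Where the counts of Acot1 and Acot2 were added before the fit, the pair fell by 1.97 ± 0.18 on the log2 scale (edgeR adjusted p = 1.28e-07).

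Of the peroxisomal enzymes, Acot8 fell in WT by 0.74 ± 0.11 on the log2 scale (edgeR adjusted p = 2.12e-05), from 12.4 to 13.9 CPM at room temperature to 7.01 to 8.53 CPM at 29 °C. Its exons overlap those of Snx21 on the other strand over 243 bases. Snx21 was at 29.9 ± 3.28 CPM in WT at room temperature and 22.0 ± 3.0 CPM at 29 °C. In KO it went the other way, from 23.4 ± 3.36 to 29.1 ± 5.41 CPM. The labels do not say whether strand entered the counting, and the part of Snx21 in the counts of Acot8 was not tested. Acot4, which acts on dicarboxylic acyl-CoA, fell by 1.18 ± 0.38 (edgeR adjusted p = 0.0134). Its libraries overlapped, at 4.59, 9.28, 7.81 and 4.76 CPM at room temperature and 2.12, 2.09, 2.73 and 4.76 CPM at 29 °C, and the highest warm library equalled a room temperature library. Exons of Acot4 overlap a gene on the other strand, 4732463B04Rik, over 615 bases, and Gm49366 on the same strand over 33 bases.

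Acot13 went the other way. It was at 86.2, 91.6, 91.2 and 88.0 CPM at room temperature and at 141, 116, 97.6 and 107.5 CPM at 29 °C, every warm library above every room temperature library. The log2 fold change was 0.37 ± 0.10 (edgeR adjusted p = 0.00396), which is under the 1.5-fold that the submitters required. Acot7 (0.11 ± 0.10, edgeR adjusted p = 0.334) and the mitochondrial Acot9 (-0.16 ± 0.11, edgeR adjusted p = 0.210) did not pass, with 95% intervals of -0.10 to 0.32 and -0.40 to 0.08. Groups did not overlap for 6 of the 9 members, Acot3 included, beside 62.6% of all tested genes.

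At room temperature, the comparison that asks what loss of DJ-1 does in ordinary housing, 0 of 8 tested members passed between KO and WT, beside 0.239% of all tested genes. Higher genes made up 0.053% and lower genes 0.186%. The 36 calls of edgeR compare with 228 by DESeq2 and with 1678 genes under 0.05 before adjustment, and no member was in any of these sets. Acot11 was at 1034, 1356, 845.5 and 971 CPM in the KO libraries, over a range that overlapped WT, with a log2 fold change of 0.25 ± 0.21 and a 95% interval of -0.21 to 0.71. Acot2 was at 69.8, 52.9, 59.6 and 45.2 CPM (-0.06 ± 0.14, interval -0.36 to 0.24). Acot1 was at 15.6, 3.795, 10.5 and 3.90 CPM, spread in WT and KO alike, and its interval of -1.61 to 0.54 leaves room for differences over 2-fold. The narrowest intervals were those of Acot7 (-0.27 to 0.15), Acot8 (-0.20 to 0.27) and Acot13 (-0.33 to 0.10). Acot9 had the lowest unadjusted p of the 8, 0.0774 in edgeR's test, WT standing at 51.0 ± 3.67 CPM and KO at 44.1 ± 4.26 CPM (n = 4 each). The groups overlapped for all 9 members, whereas they did not for 8.21% of all tested genes.

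At 29 °C, the comparison that asks what loss of DJ-1 does in warm housing, 4 of 8 tested members differed between genotypes. Acot1, Acot2 and Acot11 were higher in KO than in WT and Acot7 was lower. Of all tested genes 44.7% passed (24.7% higher and 20.0% lower), so the count by itself is near the background, and the median log2 fold change of all genes was 0.04. These 4 genes also had no overlap between genotypes, beside 43.1% of all tested genes.

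Acot2 was at 67.2, 60.3 and 71.2 CPM in the 3 KO libraries, all above the 14.6 to 22.1 CPM of the WT libraries. The difference was 3.69-fold, a log2 fold change of 1.88 ± 0.15 (edgeR adjusted p = 4.31e-07). It was 1.79 without the 3 libraries that held muscle transcripts (edgeR adjusted p = 0.000214). The KO libraries at 29 °C overlapped KO libraries at room temperature, at 45.2 to 69.8 CPM.

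Acot11 was at 113, 203 and 122 CPM in KO at 29 °C, above the 32.1 to 52.8 CPM of WT, with replicate 2 standing above the others. The log2 fold change was 1.72 ± 0.23, or 3.30-fold (edgeR adjusted p = 4.51e-05). Without the 3 libraries that held muscle transcripts, replicate 2 among them, it was 1.36 (edgeR adjusted p = 0.00447). All KO values at 29 °C stayed far below the 845.5 to 1356 CPM of KO at room temperature. In the same comparison 8 of 12 brown adipocyte markers were higher in KO and none lower, with a median log2 fold change of 1.27. Lymphocyte markers were higher in 10 of 11 (median 1.84), and all 5 red blood cell markers (median -1.08) and all 12 endothelial markers (median -1.33) were lower. The part of cell make-up in the levels of Acot11 and Acot2 was not tested.

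Acot1 was at 1.59, 2.37 and 2.50 CPM in KO at 29 °C, all above the 0.0694 to 0.646 CPM of WT. The log2 fold change was 2.56 ± 0.71 (edgeR adjusted p = 0.0108), with a wide 95% interval of 1.02 to 4.10. The call was lost with limma-voom (2.78, adjusted p = 0.0665) and without the 3 libraries that held muscle transcripts (2.03, edgeR adjusted p = 0.224). The summed pair of Acot1 and Acot2 was 1.90 ± 0.19 higher (edgeR adjusted p = 2.32e-06). Of the counts of the pair, Acot1 received 2.32% to 3.77% in KO and 0.330% to 3.37% in WT at 29 °C, against 11.0% to 24.3% in WT and 6.73% to 18.2% in KO at room temperature. How the reads of the shared runs were divided between the copies was not tested.

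**Figure D3:**
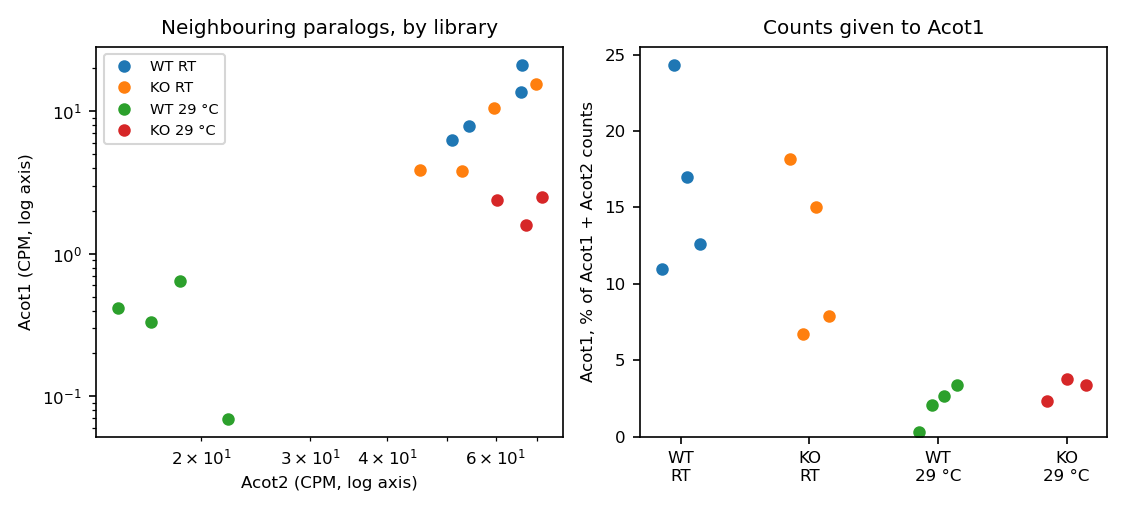
Left, Acot1 against Acot2 in CPM, both on log axes, each point 1 library. Right, the share of the summed Acot1 and Acot2 counts given to Acot1, in percent: KO libraries at 29 °C have as much Acot2 as room temperature libraries, while Acot1 holds 2.32% to 3.77% of the pair's counts there.

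Acot7 was at 17.0, 14.1 and 15.01 CPM in KO and at 22.7, 22.0, 18.6 and 17.8 CPM in WT at 29 °C, with no overlap. It fell by 0.40 ± 0.11 on the log2 scale (edgeR adjusted p = 0.00705), a 1.32-fold difference, under the 1.5-fold of the submitters. The call was lost without the 3 libraries that held muscle transcripts (-0.29, edgeR adjusted p = 0.207). Endothelial markers, which sum to 1700 to 2270 CPM in WT and 709 to 964 CPM in KO at 29 °C, were all called lower in KO (12 of 12, all detected). Their part in the level of Acot7 was not tested.

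The other 4 tested members did not pass. Acot4 was at 5.87, 2.07 and 6.86 CPM in KO, with replicate 2 at the level of the lowest WT libraries (0.77 ± 0.41, edgeR adjusted p = 0.141). It passed without KO replicate 2 (1.13, edgeR adjusted p = 0.0252) or without WT replicate 4 (1.10, edgeR adjusted p = 0.0430). Acot8 (0.19 ± 0.12), Acot9 (0.05 ± 0.12) and Acot13 (-0.19 ± 0.11) had 95% intervals of -0.06 to 0.45, -0.20 to 0.31 and -0.42 to 0.04.

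In KO mice, 3 of the 8 tested members were lower and 1 was higher after warm housing, beside 46.0% of all tested genes (21.7% lower and 24.3% higher). Acot11 fell by 2.85 ± 0.26 on the log2 scale, or 7.20-fold (edgeR adjusted p = 2.01e-06), and Acot8 by 0.59 ± 0.12 (edgeR adjusted p = 0.000969), from 10.9 to 14.3 CPM to 7.66 to 9.53 CPM. Acot2 did not pass, with a log2 fold change of 0.22 ± 0.15 and a 95% interval of -0.10 to 0.54 (edgeR adjusted p = 0.247). Acot1 fell by 1.98 ± 0.59 (edgeR adjusted p = 0.0156), from 3.795 to 15.6 CPM to 1.59 to 2.50 CPM. The summed counts of Acot1 and Acot2, of which Acot1 makes up 18.2% or less in every KO library, stood at 0.07 ± 0.18 (edgeR adjusted p = 0.795), a value that follows Acot2 and does not bear on Acot1 alone. The call on Acot1 was lost without KO replicate 1 at 29 °C (-1.79, edgeR adjusted p = 0.0603) and without the 3 libraries that held muscle transcripts (-2.48, edgeR adjusted p = 0.114). Of the brown adipocyte markers, 3 of 12 were called lower in this comparison and none higher, with a median log2 fold change of -0.29, and their part in the fall of Acot11 was not tested.

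Acot13 rose in KO by 0.30 ± 0.11 (edgeR adjusted p = 0.0339), from 76.7 to 90.9 CPM to 91.6 to 107.5 CPM. The call was lost when any of KO replicates 2, 3 or 4 at room temperature or 1 or 2 at 29 °C was left out, with edgeR adjusted p of 0.0770, 0.111, 0.0849, 0.118 and 0.0943, while the log2 fold change stayed at 0.25 to 0.28. It was also lost without both KO replicates 2 and 4 at room temperature (0.22, edgeR adjusted p = 0.234), without the 3 libraries that held muscle transcripts (0.31, edgeR adjusted p = 0.185) and with no filter on low counts (0.24, edgeR adjusted p = 0.113). Acot4 (-0.39 ± 0.40), Acot7 (-0.23 ± 0.11) and Acot9 (0.10 ± 0.12) did not pass, with edgeR adjusted p of 0.455, 0.0963 and 0.504. Groups did not overlap for 4 members, Acot1, Acot8, Acot11 and Acot13, beside 48.1% of all tested genes.

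**Figure D4:**
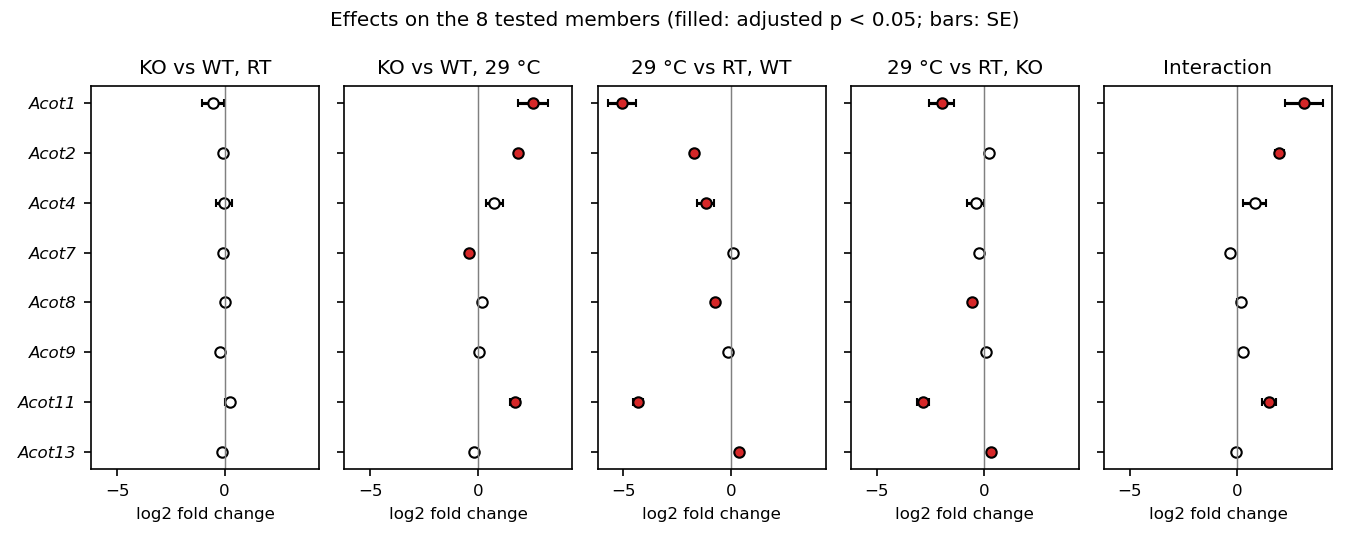
Points give the log2 fold change of each of the 8 tested genes in the 4 comparisons and the interaction, bars its SE, and filled points an edgeR adjusted p under 0.05. No point is filled for KO against WT at room temperature, and the interaction is filled for Acot1, Acot2 and Acot11.

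The effect of genotype differed between the 2 temperatures for 3 of the 8 tested members, tested as the interaction in the same fit, beside 28.3% of all tested genes (16.0% higher and 12.3% lower). Of the 3 called members, Acot2 had the smallest SE, at a log2 difference of 1.95 ± 0.21 (edgeR adjusted p = 1.83e-05). Acot11 followed at 1.47 ± 0.32 (edgeR adjusted p = 0.00342), and it was 1.12 without the 3 libraries that held muscle transcripts (edgeR adjusted p = 0.0400). Acot1 stood at 3.09 ± 0.87 (edgeR adjusted p = 0.0188), with a 95% interval of 1.2 to 4.99. Its call was lost without those 3 libraries (2.57, edgeR adjusted p = 0.196) and with limma-voom (3.42, adjusted p = 0.0589), while the summed pair of Acot1 and Acot2 stood at 2.03 ± 0.25 (edgeR adjusted p = 6.71e-05). The same difference seen across temperatures is that Acot11 was 20.0-fold lower in warm WT and 7.20-fold lower in warm KO. Acot4 (0.80 ± 0.55), Acot7 (-0.34 ± 0.15), Acot8 (0.15 ± 0.16), Acot9 (0.26 ± 0.16) and Acot13 (-0.07 ± 0.15) did not pass, and Acot7 did so without WT replicate 4 at 29 °C (-0.40, edgeR adjusted p = 0.0477).

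The remaining genes of the type I cluster and the further Acot genes were low. Acot6, a peroxisomal enzyme at the end of the cluster, was tested, and its room temperature level was 1.36 ± 0.285 CPM for WT and 1.81 ± 0.452 CPM for KO (n = 4 each), and its 29 °C level 0.339 ± 0.133 CPM for WT (n = 4) and 1.72 ± 0.304 CPM for KO (n = 3). It was higher in KO at 29 °C (2.31 ± 0.31, edgeR adjusted p = 2.48e-05) and lower in warm WT (-1.97 ± 0.30, edgeR adjusted p = 2.39e-05), and its interaction was 1.89 ± 0.41 (edgeR adjusted p = 0.00291). Acot5, Acot10 and Acot12 had at most 14 counts in any library and were not tested.

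The profiles most like those of Acot11, Acot13 and Acot2, the members with the highest mean CPM (not per kb) over all libraries, were measured as the root mean square difference of centred log2 CPM over the 15 libraries, among 11910 genes. For Acot11 these were Sorl1 (0.31), Elovl6 (0.32), a fatty acid elongase, and Echdc1 (0.43), which removes side products of fatty acid synthesis, where the median gene was at 1.97. Elovl6 went from 890 CPM in WT at room temperature to 59.4 CPM in WT and 132 CPM in KO at 29 °C, beside 884, 44.2 and 146 CPM for Acot11. For Acot13 they were Dus1l (0.11), Ubl5 (0.12) and S100a1 (0.12), with a median of 0.44. For Acot2 they were Trp53inp2 (0.21), Tmem37 (0.22) and Pla2g7 (0.22), with a median of 0.84. Trp53inp2 was at 537 and 562 CPM at room temperature, and warm WT stood at 153 CPM and warm KO at 534 CPM. A gene with a flat profile would differ by the member's own SD over the libraries, 1.97 for Acot11, 0.22 for Acot13 and 0.8 for Acot2. The medians by themselves are therefore no scale of likeness. The genes compared left out the members, genes of low mean CPM and symbols of the Gm and Rik forms. Libraries share their scaling and group means, and these likenesses are a description.

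Other genes of acyl-CoA handling were counted from lists, each with its median log2 fold change. The counts stand beside 32.8% of all tested genes called lower and 35.9% higher in warm WT, 21.7% and 24.3% in warm KO, 20.0% and 24.7% in KO against WT at 29 °C, and 12.3% and 16.0% in the interaction. At room temperature none of the listed genes was called between genotypes. The list of other thioesterases included Acot6, Fasn, Them4, Ppt2, the mitochondrial Hibch and the depalmitoylating Lypla1. Of its 9 tested genes, 7 were called lower and 2 higher in warm WT (median -1.23). In KO against WT at 29 °C 5 were higher and none lower (median 0.65). Them4 was at 14.1 ± 1.30 CPM in WT at room temperature, 6.02 ± 0.459 in WT and 13.4 ± 2.13 in KO at 29 °C (1.16 ± 0.12 between genotypes, edgeR adjusted p = 2.19e-06).

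Acyl-CoA synthetases, which make the substrate that thioesterases remove, were called lower in 13 and higher in 1 of 17 genes in warm WT (median -1.35). In warm KO 12 were lower and 1 higher, and between genotypes at 29 °C 3 were higher and 1 lower (median 0.16), a smaller share than the 44.7% of all genes. Acsl5 fell by 3.51 ± 0.22 on the log2 scale in WT and fell by 3.38 ± 0.24 in KO (edgeR adjusted p = 3.60e-09 and 3.99e-07). Acsl1, the main long-chain synthetase of fat, was 1.05 ± 0.18 higher in KO than in WT at 29 °C (edgeR adjusted p = 0.000261), and the only called lower gene was Slc27a3 (-0.98 ± 0.24, edgeR adjusted p = 0.00318). Acsf2 was the remaining gene called higher (0.87 ± 0.13), beside Acsl5 (0.73 ± 0.21, edgeR adjusted p = 0.0119).

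Mitochondrial beta-oxidation enzymes, which consume acyl-CoA, were lower in 18 of 19 genes in warm WT (median -1.20) and in 9 of 19 in warm KO, where 1 was higher (median -0.32). Between genotypes at 29 °C, 17 were higher and 1 lower (median 0.76), and the interaction was called higher in 16. Hadha, a subunit of the trifunctional protein, was at 2180 ± 125 CPM in WT at room temperature, and at 29 °C it stood at 451 ± 16.1 CPM for WT and 1070 ± 188 CPM for KO. Peroxisomal enzymes and importers were lower in 16 of 19 genes in warm WT (median -1.07) and higher in 14 in KO at 29 °C (median 0.52), with none called the other way in either. Hsd17b4, the peroxisomal bifunctional enzyme, was 0.96 ± 0.10 higher in KO (edgeR adjusted p = 2.83e-06).

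The carnitine shuttle had 5 lower and 2 higher of 9 genes in warm WT (median -0.88) and 5 higher in KO at 29 °C (median 0.34), Slc25a20, the carnitine-acylcarnitine carrier, by 1.22 ± 0.12 (edgeR adjusted p = 1.64e-06). Of the genes that make, break down or carry coenzyme A, the other product of the thioesterases, 9 of 16 were lower and 2 higher in warm WT (median -1.02), and 7 were higher and 2 lower in KO at 29 °C (median 0.34). In warm WT the 11 of 16 called in either direction are near the 68.8% of all genes. Pank3, a kinase at the first step of coenzyme A synthesis, was 1.67 ± 0.16 higher in KO (edgeR adjusted p = 1.79e-06). Acyl-CoA and fatty acid binding proteins had 4 lower and 1 higher of 9 in warm WT. In KO at 29 °C 1 was higher, Acbd5 (0.60 ± 0.14), and 1 lower, Fabp7 (-1.33 ± 0.45, edgeR adjusted p = 0.00201 and 0.0252). Both comparisons had a smaller share called than of all genes. Fabp7 was low at 29 °C, at 0.355 CPM in KO and 0.878 CPM in WT. PPAR receptors, partners and target genes, a list that names regulators of this pathway, had 15 lower and 1 higher of 23 in warm WT (median -0.75). Taken in either direction, that share is near the 68.8% of all genes. In KO at 29 °C 12 were higher and 1 lower (median 0.44). Plin5, a lipid droplet protein, was 1.69 ± 0.14 higher in KO (edgeR adjusted p = 4.52e-07) and Pparg 0.92 ± 0.18 (edgeR adjusted p = 0.000899).

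**Figure D5:**
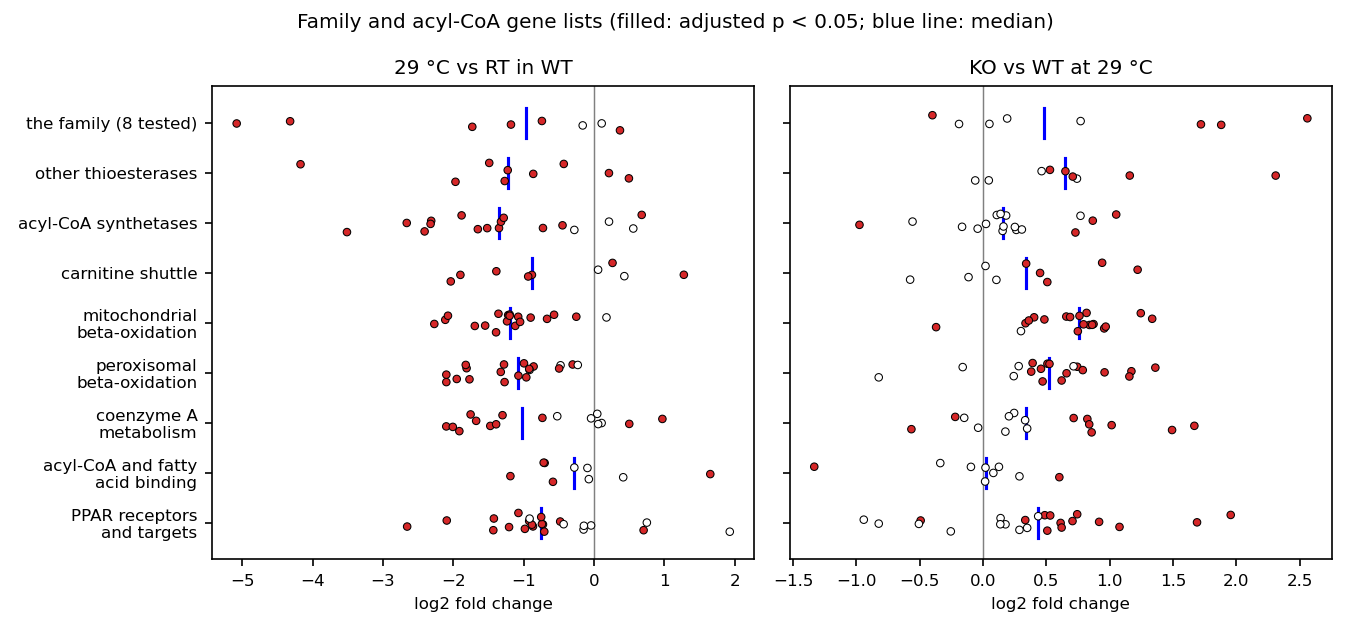
Each point is 1 tested gene, placed by its log2 fold change for warm against room temperature in WT (left) and for KO against WT at 29 °C (right). Filled points have an edgeR adjusted p under 0.05 and blue lines mark list medians, which for the mitochondrial beta-oxidation enzymes lie at -1.20 and 0.76.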

How the data were processed

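The authors deposited expected counts (RSEM estimates, which need not be whole) per gene symbol for 15 BAT libraries, sequenced in pairs of 150 bp on a BGIseq500. Per the labels and the submitters' processing notes, reads were mapped to mm10 by STAR 2.7.10a and counted by RSEM 1.2.28, and genes were called by DESeq2 (version stated as 1.3.40) at an adjusted p under 0.05 and a fold change over 1.5. The annotation and the use of strand are not given in the sources used here.

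Expected counts were rounded, kept by edgeR's filterByExpr (minimum count 10, by group), scaled by TMM and fitted for the 4 groups together in edgeR 4.0.16 under R 4.3.3 (robust quasi-likelihood F test), with 11 residual degrees of freedom and Benjamini-Hochberg adjustment over 15083 genes per comparison. The fit was also run on simulated counts with few changed genes. In these data many genes changed with warm housing, so that run does not show how the fit performs here. CPM per kb used the protein-coding exon length in GENCODE on GRCm38. Alternatives were RLE factors, filters, thresholds, DESeq2 1.42.0, limma-voom (limma 3.58.1), merged copies, the replicate block and left-out libraries. No pair of libraries of the same group agreed within sampling noise, and pairs from different groups were not compared.

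The members and lists were chosen with earlier results of these data known. All 9 members are named in each comparison, with Park7, the other Acot genes, examples from the 3 called genes of each list with the lowest adjusted p (or from all, where 5 or fewer were called), and the 3 genes with profiles most like those of the 3 members with the highest CPM.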

Additional observations from a re-analysis of the deposited data

Results flagged for a closer look

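Acot8 in KO replicate 4 at room temperature stood at 10.89 CPM, while the other 3 KO libraries lay between 13.8 and 14.3 CPM, a gap of 0.872 of the group's range. It was the only library among 27 groups of 4 tested to stand apart in this way, and chance flags about 1 in 20 such groups.

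The genotype effect differed between the temperatures, by edgeR's interaction term, for Acot1 (3.09 on the log2 scale), Acot2 (1.95) and Acot11 (1.47). In each of the 3 genes KO was higher than WT at 29 °C and did not pass at room temperature. Of all tested genes 28.3% passed in the interaction. The calls on Acot1, in the interaction and between genotypes at 29 °C, were both lost with limma-voom.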

How the results depend on the processing

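Of 1072 member results under alternatives (40 results), 1038 kept their side of the threshold and their direction (or, with no call, changed sign by less than the SE), 24 lost a call, 5 gained one, 4 without a call moved and 1 reversed. That last result is Acot1 in warm against room temperature KO with the counts of Acot1 and Acot2 merged, mostly counts of Acot2, which stood at 0.07 and is no estimate of Acot1; Acot1 itself lay between -2.22 and -1.51 with a replicate left out. Every call on Acot2 and on Acot11 was kept, in the same direction, under every alternative run. The left-out libraries include ones outside the groups compared, where little could change, so the count of kept results is generous. With copies merged, Acot2 took the value of the pair, Acot4 that of Acot3 to Acot6 and Acot9 that of Acot9 and Acot10. The call on Acot4 gained there, in KO against WT at 29 °C (1.06), is no estimate of Acot4 alone.

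Members called in KO against WT at 29 °C numbered 4, and 2 without the 3 libraries with muscle transcripts. In warm against room temperature KO they numbered 4, and 2 without those libraries, 2 at an adjusted p under 0.01 and 2 to 4 with a replicate left out (2 without KO replicate 1 at 29 °C). Leaving out a replicate gave 0 to 0 members for KO against WT at room temperature, 4 to 5 at 29 °C, 6 to 6 for warm WT and 3 to 4 for the interaction.

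Over all genes, KO against WT at room temperature gave 36 calls, and 228 with DESeq2, 4 at an adjusted p under 0.01, 13 without the muscle libraries, 5 without KO replicates 2 and 4, and 5 to 60 with a replicate left out. KO against WT at 29 °C gave 6747 calls, 4182 with a fold over 1.5, 4229 without the muscle libraries and 5374 to 6725 with a replicate left out. Warm KO gave 6940, and 4374, 4129 and 5490 to 7273 for the same settings. Warm WT gave 10375 (9781 to 10529). The interaction gave 4272, 2304 at an adjusted p under 0.01, and 3277 to 4563. The causes were not tested.

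The deviations of same-numbered libraries from their group means had correlations from -0.276 to 0.330. Libraries with different numbers were not compared in this way, so these values cannot exclude pairing by number. The main fit did not pair libraries, and a block for the replicate number was run as an alternative. The replicate block gave 0, 4, 6, 5 and 2 members in the 4 comparisons and the interaction; Acot7 in warm KO was gained (-0.27, edgeR adjusted p = 0.0497) and the Acot1 interaction lost (2.90, edgeR adjusted p = 0.0523). Acot3, which the filter left out, was called lower in warm WT with no filter (-2.82), with DESeq2 (-2.90, adjusted p = 0.0011) and without the muscle libraries (-2.85, edgeR adjusted p = 0.00755). Depth limits Acot3 and, in warm WT, Acot1.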
